A study of Homo sapiens with 6 samples.

Results

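The genes described are the NUAK, SIK and MARK kinases, NUAK1, NUAK2, SIK1 to SIK3 and MARK1 to MARK4, together with STK11, the gene for their activating kinase LKB1. The 10 genes were chosen by name among the 28395 genes counted, by a rule that uses no measured value. RNA came from U251MG, an established human glioblastoma astrocytoma line, as 3 WT libraries and 3 NUAK2-CR libraries, in which NUAK2 had been targeted by CRISPR-Cas9; no library received any other treatment according to the labels. Per the study's methods, cells carrying the guide on a GFP vector and on an mCherry vector were sorted singly and grown as clones, and the labels name no clone. Whether the WT cells carried any vector is not stated in the sources used here. A difference that comes from cloning or from the vectors therefore cannot be told apart from the effect of targeting NUAK2. Nothing in the labels states that the libraries came from separate cultures, so p-values measure only the spread between these libraries.

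Libraries held from 29648445 to 55574081 counts, the deepest being WT replicate 1, and 14873 genes passed the expression filter, including all 10 kinases. The lowest count of any of them was 220 and the highest 7497, so none was near the limit of detection, and together they took between 0.0559% and 0.0629% of the counts of a library. Marker counts are given before scaling, and every WT library was deeper than every NUAK2-CR library. The 7 markers of the astroglial line summed to 329788 to 489434 counts in WT and 116415 to 128900 in NUAK2-CR. Each of the 7 was detected in every library. Of these, 6 fell, among them GFAP (85177 to 123418 counts in WT against 12365 to 12909 in NUAK2-CR) and S100B (160 to 198 against 13 to 40), and EGFR rose (log2 fold change 0.70; edgeR test, adjusted p = 1.92e-05). AIF1 of microglia and MOG of oligodendrocytes had 0 counts in all libraries, and PTPRC of leukocytes had at most 3. Summed counts of the 3 neuronal markers were 542 to 676 in WT and 1125 to 1468 in NUAK2-CR, and those of the 3 endothelial markers 16 to 47 and 70 to 80. Summed oligodendrocyte markers were 109 to 211 in WT and 34 to 43 in NUAK2-CR, microglial and leukocyte markers 215 to 304 and 30 to 41, and epithelial markers 10 to 37 and 11 to 18. The part of these marker differences in the results given here was not tested. In bulk RNA, fewer expressing cells and less RNA per cell cannot be told apart.

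LKB1 is a master kinase that works in a complex with a STRAD pseudokinase and the scaffold MO25. It switches on AMPK and a family of AMPK-related kinases by phosphorylating a threonine in their activation loop. NUAK kinases act on the myosin phosphatase and thereby on actomyosin contraction, SIK kinases hold CRTC coactivators and class IIa histone deacetylases in the cytoplasm, and MARK kinases, the Par-1 homologues, detach tau and related proteins from microtubules and set cell polarity. NUAK2 is a known target of the YAP/TEAD transcription complex, and SIK1 is a known early target of CREB.

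Sequence upstream of the start is shown for NUAK2, the edited gene, and for the 3 SIK genes, which responded unequally. Each window is the 250 bases before the annotated start in RefSeq (build GRCh38.p14), written 5′ to 3′ on the strand of the gene. Capitals mark GGAATG, the TEAD core motif, or its reverse complement CATTCC in NUAK2, and TGACG, the core of the cyclic AMP response element, or its reverse complement CGTCA in the SIK genes.
NUAK2, chr1:205321746-205321995, minus strand: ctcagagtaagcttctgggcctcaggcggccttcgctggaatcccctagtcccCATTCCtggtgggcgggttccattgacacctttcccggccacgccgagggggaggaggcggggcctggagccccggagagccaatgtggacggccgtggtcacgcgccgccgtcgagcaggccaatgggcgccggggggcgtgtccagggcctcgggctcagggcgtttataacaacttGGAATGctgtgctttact
SIK1, chr21:43427132-43427381, minus strand: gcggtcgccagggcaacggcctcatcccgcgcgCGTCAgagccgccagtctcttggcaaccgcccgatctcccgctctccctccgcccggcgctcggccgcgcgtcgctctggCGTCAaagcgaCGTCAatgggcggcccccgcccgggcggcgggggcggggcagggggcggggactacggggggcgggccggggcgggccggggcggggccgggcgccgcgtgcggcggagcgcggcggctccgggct
SIK2, chr11:111602199-111602448, plus strand: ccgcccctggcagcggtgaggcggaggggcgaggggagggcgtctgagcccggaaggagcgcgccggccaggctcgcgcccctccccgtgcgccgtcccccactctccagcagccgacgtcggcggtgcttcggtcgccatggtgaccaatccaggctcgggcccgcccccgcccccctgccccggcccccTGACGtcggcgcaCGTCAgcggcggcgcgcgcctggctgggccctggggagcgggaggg
SIK3, chr11:117098429-117098678, minus strand: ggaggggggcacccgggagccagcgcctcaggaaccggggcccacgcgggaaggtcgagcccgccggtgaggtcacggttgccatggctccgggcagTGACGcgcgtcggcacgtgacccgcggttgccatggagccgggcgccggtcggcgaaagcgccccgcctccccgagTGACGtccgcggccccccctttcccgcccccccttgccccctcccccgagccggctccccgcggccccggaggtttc
The NUAK2 window held the TEAD core at -197 to -192 and again at -18 to -13 relative to the start. Of the 10 windows of the kinases only this 1 held it, close to the 11.9% of the 35116 windows in the table that did. TGACG occurred at 3 places in SIK1, 2 in SIK2 and 2 in SIK3, and also in the windows of STK11, MARK3 and MARK4. It was in 6 of the 10 windows of the kinases and in 21.2% of all windows. The full element TGACGTCA, which contains TGACG on both strands, was in none of the 10 windows of the 9 kinases in the table and in 1.65% of all windows. These letters were searched on both strands, and none of the marked stretches overlaps another. A match describes the sequence and not a bound site.

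NUAK2 (gene 81788, chromosome 1, 205302063 to 205321745, minus strand), the targeted gene, was lower in NUAK2-CR but still well detected as RNA. Normalized counts, that is counts put on a common depth with TMM factors, were 1926, 1457 and 1580 in the WT libraries. The edited libraries held 799, 961 and 849. All 3 of them lay below every WT library, so the labels and the transcript go the same way, and 52.6% of the WT mean remained. The log2 fold change was -0.93 (standard error, SE, 0.11; edgeR quasi-likelihood test, Benjamini-Hochberg adjusted p = 1.8e-05). The study reports NUAK2 deletion in its edited clones by immunoblot and qPCR. The qPCR also measures RNA, and the share it left was not compared with the 52.6% here. Counts of RNA over the whole gene do not measure the protein, so the remaining share is not a share of working kinase. NUAK2 overlaps no other gene of the RefSeq annotation (GRCh38.p14), from which the coordinates of all genes named here are taken.

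NUAK1 (gene 9891, chromosome 12, 106063345 to 106138954, minus strand), the closest relative of NUAK2 and a kinase tied to cell adhesion and cell-cycle control, went the other way. Its normalized counts were 1682, 1744 and 1707 in the WT libraries, against 2791, 2808 and 2611 in the edited ones, so that the groups stood well apart. NUAK1 rose to 160% of WT, a log2 fold change of 0.68 (SE 0.07; edgeR test, adjusted p = 3.38e-06). By immunoblot, the study reports no significant NUAK1 difference in its edited clone NUAK2-CR3. That is a protein measure, whereas the counts are RNA, and the labels name no clone.

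Because both NUAK genes were measured in the same libraries, their ratio does not depend on how the libraries were scaled. The log2 ratio of NUAK2 to NUAK1 counts was 0.20, -0.26 and -0.11 in the WT libraries, against -1.81, -1.55 and -1.62 in the edited ones. Its group means differed by -1.60 and the libraries did not overlap, but 3 libraries against 3 cannot give a two-sided exact permutation p below 0.1, the value found here (0.111 after Benjamini-Hochberg adjustment over the 10 pairs of family members compared). Per kilobase of the main annotated transcript (MANE Select in GENCODE), NUAK2 made up 66.0%, 58.6% and 61.1% of the NUAK counts in the WT libraries, against 32.6%, 36.7% and 35.5% in the edited ones. On this per-kilobase scale NUAK2 was the higher of the pair in WT and NUAK1 in the edited cells. Without division by length the mean NUAK2 share was 49.0% in WT and 24.1% in NUAK2-CR, so NUAK2 did not lead in WT on that scale, while the fall in its share was similar. The sum of both genes was 786 ± 66.7 (SD, n = 3) normalized counts per kilobase for WT, against 733 ± 35.1 (SD, n = 3) for NUAK2-CR, a difference within the spread between libraries (exact two-sided permutation p = 0.3).

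**Figure D1:**
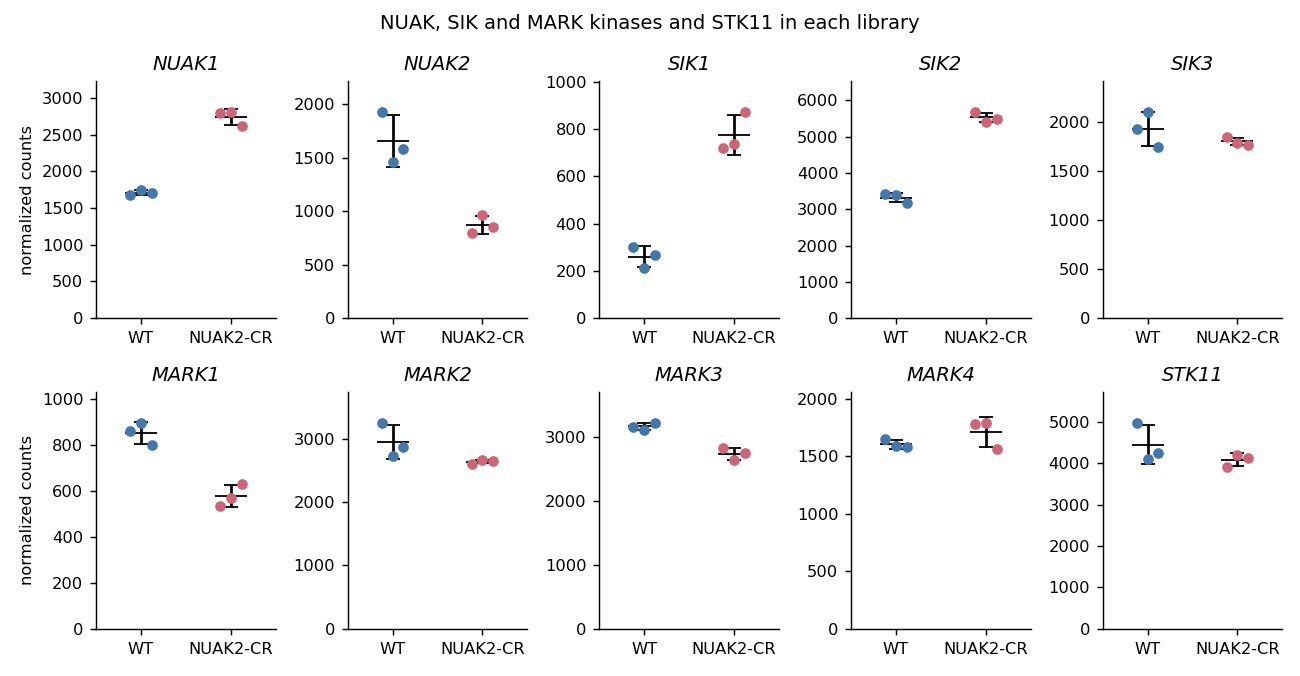
Normalized counts (vertical axis, starting at 0) of the 10 kinase genes in each WT library (blue points) and each NUAK2-CR library (red points), with the mean and SD as black bars (n = 3). NUAK1, SIK1 and SIK2 lie higher and NUAK2, MARK1, MARK2 and MARK3 lower in all 3 NUAK2-CR libraries than in any WT library.

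SIK1 showed the greatest change of the 10 genes. SIK1 (gene 150094, chromosome 21, 43414483 to 43427131, minus strand) had 303, 212 and 268 normalized counts in the WT libraries, against 720, 736 and 873 in the edited ones, without overlap. Its mean rose to 297% of WT, a log2 fold change of 1.57 (SE 0.14; edgeR test, adjusted p = 1.4e-06). In GRCh38 this gene has a second, near-identical copy, LOC102724428 (chromosome 21, 6111131 to 6123778), which the table counts separately. Over the 12648 bases of the copy, the hg38 sequences of both loci differed by 11 substitutions and 1 inserted or deleted base, and the 250 bases upstream were identical. How reads were divided between the copies is therefore uncertain, and values of SIK1 alone are a part of the signal. The default setting of the counting tool, which the study states was used, leaves out reads that fit both loci equally. The sum of both copies, used below for shares and levels, is therefore likely also only a part of the signal. Its levels per kilobase and its share of the SIK counts may be too low.

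The copy took most of the reads. It had 800, 850 and 889 normalized counts in the WT libraries, against 2708, 3102 and 2741 in the edited ones. SIK1 itself held 27.5%, 20.0% and 23.1% of the counts of the pair in WT and between 19.2% and 24.1% in NUAK2-CR, and these shares overlapped between groups (exact two-sided permutation p = 0.6). With both copies summed the locus rose, its normalized mean being 1107 ± 47.4 (SD, n = 3) in WT and 3627 ± 205 (SD, n = 3) after editing, which is 1.71 on the log2 scale (SE 0.07; edgeR test, adjusted p = 2.68e-09).

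SIK2 (gene 23235, chromosome 11, 111602449 to 111730855, plus strand), which phosphorylates CRTC coactivators in many tissues, rose as well. Its normalized counts were 3412, 3380 and 3173 in the WT libraries, against 5681, 5415 and 5490 in the edited ones, with no overlap. The log2 fold change was 0.73 (SE 0.07; edgeR test, adjusted p = 1.33e-06). SIK2 shares part of its span with PPP2R1B, a scaffold subunit of protein phosphatase 2A, which did not pass the test (log2 fold change 0.13; edgeR test, adjusted p = 0.128), and which lies on the opposite strand. The default setting of the counting tool, which the study states was used, does not use strand, so reads from the shared span cannot be told apart by strand.

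SIK3 (gene 23387, chromosome 11, 116843402 to 117098428, minus strand) did not pass the test. Its normalized counts were 1923, 2098 and 1747 in the WT libraries, against 1842, 1786 and 1765 in the edited ones, so the groups overlapped. The log2 fold change was -0.10, with a 95% interval from -0.27 to 0.08. The log2 ratio of SIK2 to SIK3 was 0.83, 0.69 and 0.86 in the WT libraries, against 1.62, 1.60 and 1.64 in the edited ones. That ratio was higher in every NUAK2-CR library, at the smallest exact permutation p the design allows (0.1, two-sided; 0.111 adjusted).

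Within the SIK family the make-up per kilobase changed accordingly. SIK1 with its copy held 26.5% ± 2.03 (SD, n = 3) of the SIK counts per kilobase for WT, against 47.1% ± 1.94 (SD, n = 3) for NUAK2-CR, while SIK3 held 34.3% ± 2.05 (SD, n = 3) and 17.4% ± 0.566 (SD, n = 3). SIK2 held 39.2% ± 0.589 (SD, n = 3) and 35.5% ± 1.39 (SD, n = 3), a lower share despite its rise. The family sum was 889, 905 and 848 normalized counts per kilobase in the WT libraries, against 1602, 1652 and 1609 in the edited ones. It did not overlap between the groups (exact two-sided permutation p = 0.1, the smallest possible with 3 against 3).

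MARK1 (gene 4139, chromosome 1, 220528136 to 220664461, plus strand), first known for phosphorylating microtubule-associated proteins in brain, was the lowest MARK gene per kilobase and fell in NUAK2-CR. It had 859, 897 and 802 normalized counts in the WT libraries, against 536, 568 and 629 in the edited ones, without overlap. The log2 fold change was -0.56 (SE 0.10; edgeR test, adjusted p = 0.000312).

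MARK3 (gene 4140, chromosome 14, 103385415 to 103503831, plus strand), which marks CDC25C and KSR1 for binding by 14-3-3 proteins, was the most abundant MARK gene per kilobase and changed little. Its normalized counts were 3164, 3117 and 3226 in the WT libraries, against 2824, 2640 and 2753 in the edited ones, a fall of small size with a log2 fold change of -0.21 (SE 0.06; edgeR test, adjusted p = 0.0148). This call was lost when a single edited library was left out, at an edgeR adjusted p of 0.0776 without NUAK2-CR replicate 2 and 0.0519 without NUAK2-CR replicate 3.

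MARK2 (gene 2011, chromosome 11, 63839110 to 63911020, plus strand), a regulator of epithelial and neuronal polarity, had 3250, 2726 and 2866 normalized counts in the WT libraries, against 2604, 2656 and 2652 in the edited ones. The groups did not overlap, but the log2 fold change of -0.16 (95% interval -0.33 to 0.00462) missed the threshold (edgeR test, adjusted p = 0.0925). Without WT replicate 2 the value was -0.22 and passed (edgeR test, adjusted p = 0.0361), and without WT replicate 1 it was -0.08 (edgeR test, adjusted p = 0.306). MARK4 (gene 57787, chromosome 19, 45251271 to 45305284, plus strand), a microtubule- and centrosome-associated family member, had 1647, 1587 and 1577 normalized counts in the WT libraries, against 1778, 1791 and 1561 in the edited ones. Here the groups overlapped, and the log2 fold change was 0.09 with a 95% interval from -0.08 to 0.26 (edgeR test, adjusted p = 0.339).

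The MARK family kept its order. Its sum was 2103, 1970 and 2012 normalized counts per kilobase in the WT libraries, against 1829, 1796 and 1795 in the edited ones, lower without overlap at the smallest possible p (exact two-sided permutation p = 0.1). MARK3, MARK2, MARK4 and MARK1 held 44.9%, 31.9%, 15.4% and 7.83% of the MARK counts per kilobase in WT on average, and 43.6%, 32.1%, 18.4% and 5.96% in NUAK2-CR. MARK4 gained share in every edited library and MARK1 lost it, each at the smallest exact two-sided permutation p possible (0.1), whereas the MARK2 and MARK3 shares overlapped (p = 1.0 and 0.3 by the same exact test). The log2 ratio of MARK1 to MARK4 was -0.94, -0.82 and -0.98 in the WT libraries, against -1.73, -1.66 and -1.31 in the edited ones. The log2 ratio of MARK2 to MARK3 overlapped between the groups.

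**Figure D2:**
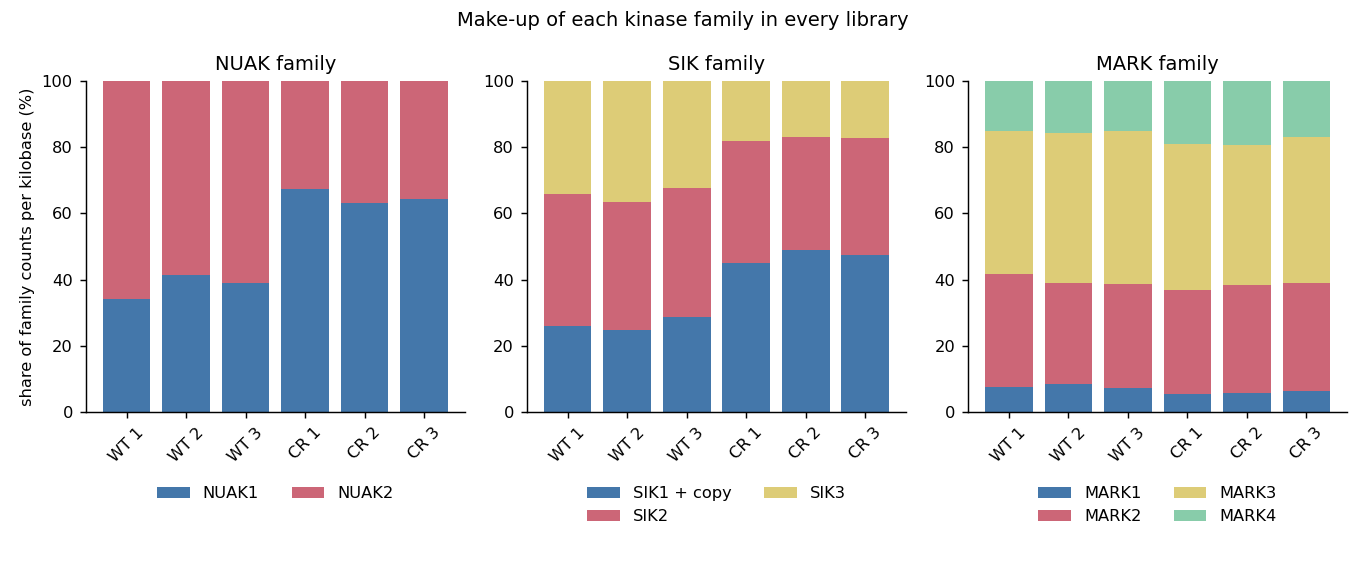
Share of each family member in the counts per kilobase of its family (vertical axis, percent), 1 stacked bar per library; SIK1 is summed with its copy. NUAK2 takes 58.6% to 66.0% of the NUAK bars in WT and 32.6% to 36.7% in NUAK2-CR, and SIK1 takes more and SIK3 less of the SIK bars in NUAK2-CR.

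STK11 (gene 6794, chromosome 19, 1205778 to 1228431, plus strand), encoding LKB1, was not called. Its normalized counts were 4980, 4092 and 4257 in the WT libraries, against 3906, 4210 and 4131 in the edited ones, and the groups overlapped. The log2 fold change was -0.12, with a 95% interval from -0.30 to 0.05 (edgeR test, adjusted p = 0.222). Without WT replicate 1 it was -0.02 (edgeR test, adjusted p = 0.754). The end of STK11 overlaps CBARP, a calcium channel regulator with 264 to 463 counts, which rose (log2 fold change 0.83; edgeR test, adjusted p = 7.96e-05).

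Per kilobase, STK11 was the highest of the 10 genes in both groups, at 1349 ± 143 (SD, n = 3) normalized counts per kilobase for WT, against 1240 ± 47.9 (SD, n = 3) for NUAK2-CR. MARK3 and MARK2 followed in both groups. In WT the order went on with NUAK2, SIK2, MARK4, SIK3, NUAK1, MARK1 and SIK1 (without its copy), where MARK4 and SIK3 overlapped, as did SIK3 and NUAK1. In NUAK2-CR it went on with SIK2, NUAK1, MARK4, SIK3, NUAK2, SIK1 and MARK1, where SIK2 overlapped MARK2 and NUAK2 overlapped SIK3. NUAK2 thus moved from rank 4 to rank 8, and from the percentile 62.3 to 46.2 among the 13130 tested genes with a MANE Select length. Counted with its copy, SIK1 averaged 233 ± 9.98 (SD, n = 3) per kilobase in WT and 764 ± 43.1 (SD, n = 3) after editing, moving from the percentile 44.8 to 73.6.

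At an adjusted p under 0.05, 6 of the 10 kinase genes were called, where 54.5% of all tested genes were. Of these, 3 were higher (NUAK1, SIK1 and SIK2; background 26.3%) and 3 lower (NUAK2, MARK1 and MARK3; background 28.2%). The groups did not overlap for 7 of the 10, against 61.4% of all tested genes (3 higher and 4 lower, background 29.8% and 31.5%). Counts of calls among the kinases were thus close to those of the whole table. Their median absolute log2 fold change was 0.39, beside 0.37 over all tested genes, and none had an absolute log2 fold change over 2, which 4.72% of the tested genes did.

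The 2 kinases on chromosome 1, NUAK2 and MARK1, both fell, and so did most of their neighbours. Around NUAK2, the 25 tested genes on each side had a median log2 fold change of -0.44, with 31 of the 50 called lower and 2 higher. NUAK2 stood 0.49 below that median on the log2 scale, and 15 of the 50 neighbours were lower still. For MARK1 the regional median was -0.39, its value less that median was -0.18, and 15 of its 50 neighbours were lower still. Over the whole of chromosome 1, 58.5% of the 1541 tested genes were called lower and 8.89% higher. Whether the fall of NUAK2 or MARK1 comes from the region was not tested.

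Around the other kinases the regional medians over 50 neighbours ran from -0.00116 at SIK2 to 0.07 at MARK3, apart from 0.22 at SIK1. They moved with the number of neighbours at MARK2, to 0.27 with 10 genes on each side, and at MARK4 and STK11, to 0.14 and 0.12 with 50 on each side. The rises of NUAK1, SIK1 and SIK2 left them at 0.62, 1.35 and 0.74 above their regional medians, and above 42, 48 and 45 of their 50 neighbours.

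**Figure D3:**
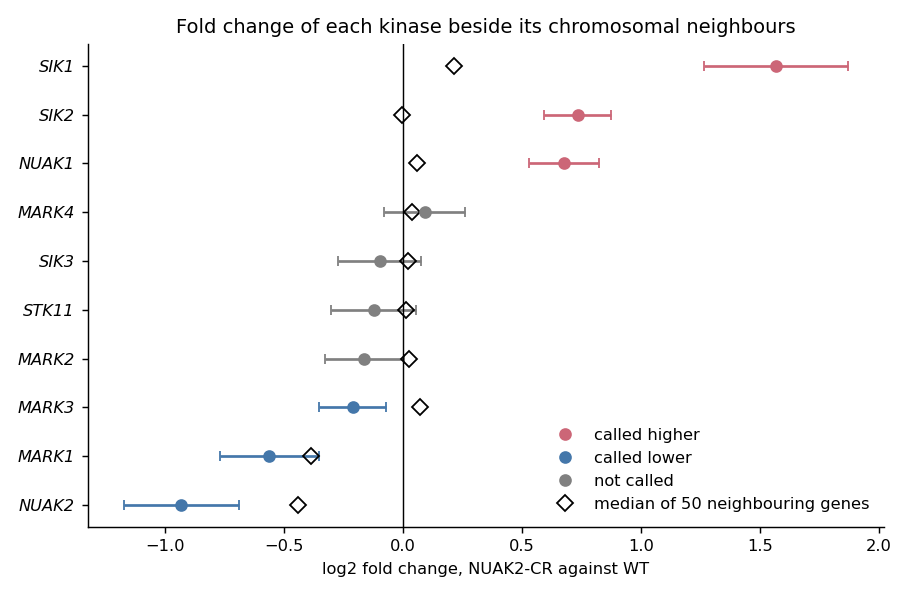
Log2 fold change of NUAK2-CR against WT for each kinase gene (points, with 95% intervals; red called higher, blue called lower, grey not called at an adjusted p of 0.05) and the median of the 50 neighbouring tested genes (open diamonds). SIK1, SIK2 and NUAK1 lie to the right of their neighbours, while the diamonds of NUAK2 and MARK1 lie at -0.44 and -0.39.

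Around the kinases, 9 lists of related genes were examined, and their counts are to be read beside the 26.3% of all tested genes called higher and the 28.2% called lower. The partners of LKB1 did not change alike. STRADA, the pseudokinase that activates LKB1 allosterically, had 3184, 2111 and 1947 counts before scaling in the WT libraries against 906, 1006 and 1030 in the edited ones. Its normalized mean fell from 2081 ± 40.5 (SD, n = 3) in WT to 1165 ± 43.1 (SD, n = 3) (log2 fold change -0.84; edgeR test, adjusted p = 9.26e-07). The other 3 of the 4 tested genes of the complex, STRADB, CAB39 and CAB39L, had log2 fold changes of 0.07, -0.03 and -0.00266 and were not called. CAB39 and CAB39L encode the MO25 scaffold.

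Among AMPK subunits, 2 of 6 tested genes fell and none rose, with a median log2 fold change of -0.23, beside 28.2% lower and 26.3% higher over all tested genes. Both that fell, PRKAB2 and PRKAA2, lie on chromosome 1, where 58.5% of the tested genes fell. PRKAB2, a regulatory beta subunit, had 4117, 3229 and 2809 counts before scaling in the WT libraries, against 769, 957 and 943 in the edited ones. Its log2 fold change was -1.49 (edgeR test, adjusted p = 2.82e-08). The catalytic subunit PRKAA2 fell by 0.52 on the log2 scale, whereas the alternative catalytic subunit PRKAA1 was at -0.18 and not called (edgeR test, adjusted p = 0.0839). PRKAG3, mainly known from skeletal muscle, had 0 or 1 count in each library and was not tested.

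Of the other 6 AMPK-related kinases, all tested, 2 rose and 2 fell. NIM1K and HUNK fell, with log2 fold changes of -1.54 and -1.43, while BRSK1, which regulates neuronal polarity, and MELK, a mitotic kinase that LKB1 does not activate, rose by 0.34 and 0.32.

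Upstream kinases other than LKB1 made up a list of 11 tested genes, of which 4 rose and 5 fell (median log2 fold change -0.09). CAMKK1 and CAMKK2, calcium-dependent activators of AMPK, diverged, with log2 fold changes of -2.01 (edgeR test, adjusted p = 4.39e-07) and 0.68 (adjusted p = 5.22e-06 from the same edgeR test). PRKCZ, an atypical protein kinase C that phosphorylates MARK kinases, fell from 207, 201 and 176 counts before scaling to 11, 9 and 4. Its log2 fold change was -4.16. TAOK1, a kinase that can activate MARK kinases, fell by 0.25 on the log2 scale although its groups overlapped, and TAOK2 and TAOK3 rose by 0.36 and 0.37. PRKACB, a catalytic subunit of the cyclic AMP-dependent kinase that inhibits SIKs, fell by 0.46, and PRKACA, another catalytic subunit, was at -0.09 and not called.

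Of 7 tested NUAK partners and substrates, 2 rose and 4 fell, with a median log2 fold change of -0.25. PPP1CB, the catalytic subunit of myosin phosphatase, fell from a normalized mean of 22459 ± 2207 (SD, n = 3) in WT to 12068 ± 398 (SD, n = 3) (log2 fold change -0.90; edgeR test, adjusted p = 1.33e-06). PPP1R12A, its targeting subunit MYPT1 and a NUAK substrate, rose by 0.23, and the Hippo kinase LATS1 rose by 0.41, whereas LATS2 was at -0.12 and not called. MTOR fell, as did GIT1, a GTPase-activating scaffold, with log2 fold changes of -0.57 and -0.40. CDH1, encoding E-cadherin, had at most 6 counts and was not tested.

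SIK substrates changed in 3 of 8 tested genes, 1 higher and 2 lower, and the median was 0.11. CRTC2, a CREB coactivator, fell by 0.60 on the log2 scale (edgeR test, adjusted p = 1.88e-05). HDAC9 fell and HDAC7 rose, with log2 fold changes of -0.20 and 0.26. CRTC1, CRTC3, HDAC4, HDAC5 and CREB1 were not called, with log2 fold changes between 0.03 and 0.19.

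The 14 CREB and CRTC target genes, all tested, did not move together, with 5 higher, 6 lower and a median of 0.22. BDNF, a neurotrophin, had 307, 261 and 240 counts before scaling in the WT libraries, against 477, 458 and 604 in the edited ones. Its log2 fold change was 1.36 (edgeR test, adjusted p = 2.81e-06). PDE4B, a cyclic AMP phosphodiesterase, fell by 1.88 while its relative PDE4D rose by 0.93. RGS2, a regulator of G protein signalling, fell by 1.61, and ID1, an inhibitor of differentiation, had a log2 fold change of -1.28. The immediate early genes FOS, NR4A2 and NR4A3 were not called (edgeR test, adjusted p = 0.517, 0.163 and 0.650). NR4A1 was called higher at 0.60 and DUSP1 lower at -0.99 (edgeR test, adjusted p = 0.0396 and 3.65e-06), so these genes did not behave alike.

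Among 13 tested MARK substrates and partners, 2 rose and 7 fell (median log2 fold change -0.32). MAP1B, a microtubule-associated protein, was the most changed at -1.39 (edgeR test, adjusted p = 2.67e-06). It had 60657, 34718 and 25314 counts before scaling in the WT libraries, against 11536, 10677 and 10004 in the edited ones. The cell-cycle phosphatase CDC25C fell by 1.16, and the trafficking adaptor RAB11FIP2 and DVL1 of the WNT pathway fell too, at -0.55 and -0.51. PARD3, a polarity scaffold, rose by 0.40. MAPT, encoding tau, had at most 6 counts, and DCX of migrating neurons had 12 to 16 counts in WT and 0 to 2 in NUAK2-CR, too few to be tested.

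The 14-3-3 proteins bind the phosphorylated substrates of SIK and MARK kinases. Of the 7 genes, 4 fell and none rose, with a median of -0.24, beside 28.2% lower and 26.3% higher over all tested genes. SFN, the stratifin form, fell by 2.25 (edgeR test, adjusted p = 8.07e-08), followed by YWHAE at -0.77, YWHAQ at -0.33 and YWHAG at -0.24. YWHAZ, YWHAB and YWHAH were not called.

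Over the 9 lists, 49 of the 76 tested genes, or 64.5%, were called, 16 higher and 33 lower, beside 54.5% of all tested genes. Chromosome 1 weighs on this count. All 10 tested list genes on it fell (CRTC2, DVL1, MTOR, PDE4B, PRKAA2, PRKAB2, PRKACB, PRKCZ, RGS2 and SFN), on a chromosome where 58.5% of the 1541 tested genes did. On the other chromosomes 16 of 66 list genes rose and 23 fell, beside 28.3% and 24.7% of the tested genes there; this split was chosen after the values had been seen.

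**Figure D4:**
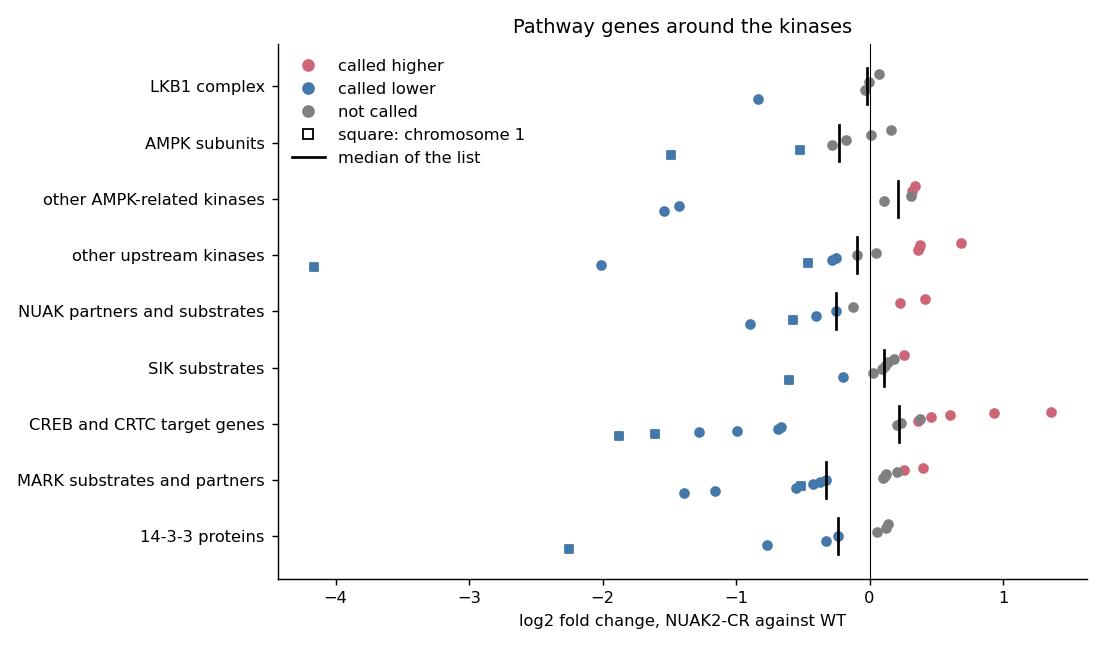
Log2 fold change of NUAK2-CR against WT (horizontal axis) for the tested genes of 9 lists around LKB1, the AMPK-related kinases and their substrates; red points were called higher, blue lower and grey not called, squares mark genes on chromosome 1 and black bars the median of each list. The list medians lie between -0.32 and 0.22, and every square is blue.

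Genes whose profile over the 6 libraries was most like that of NUAK2, by the root mean square difference of mean-centred log2 CPM, were IKBKE at 0.0346, SUV39H1 at 0.0373 and CENPX at 0.0565. Nearest to NUAK1 were SMURF2 (0.0182), WASHC2C (0.0332) and CREB3L2 (0.0403). SIK1 was nearest to TRIB3, MICAL2 and C1QTNF2, at 0.110, 0.111 and 0.116. Because profiles were matched over the same 6 libraries, a group difference in the direction of the kinase follows from the choice and is not a separate result.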

How the data were processed

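RNA was isolated with TRIzol, and polyadenylated RNA was made into libraries with the Illumina Stranded mRNA Prep kit. Paired-end reads were trimmed (Trimmomatic) and mapped to hg38 (HISAT2) by the authors, who deposited raw featureCounts counts per NCBI gene identifier, made with default parameters; the default does not use strand, and versions and gene annotation are not given in the sources used here. Samples were grouped by their titles. Of 28395 identifiers, 27745 matched a symbol in the RefSeq gene table of GRCh38.p14, and 650 did not.

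Counts were analysed in R 4.3.3 with edgeR 4.0.16 (filterByExpr, TMM, quasi-likelihood F test, Benjamini-Hochberg adjustment over 14873 genes, prior count 0.125). Standard errors were the absolute log2 fold change over the square root of F, and 95% intervals used the degrees of freedom of the fit. Levels per kilobase used MANE Select transcript lengths of GENCODE v44. Ratios and shares within families were compared by exact permutation tests in scipy 1.17.1. The edgeR test was checked on simulated data, and the permutation tests were not. In the simulation few genes changed, as many up as down, and all shared the same dispersion. That check does not cover a table in which 54.5% of the tested genes were called. Alternatives were DESeq2 1.42.0, limma-voom (limma 3.58.1), RLE and library-size scaling, other filters, a prior count of 2, a replicate block and each library left out. The genes named are the 10 kinases, called genes of 9 lists by size of change, genes overlapping a kinase, and the 3 nearest profiles; list genes named beside these were chosen after their values were seen. The kinases and lists were chosen with earlier results of these data known. Intervals on counts of 0 were not needed, since every kinase had at least 220 counts.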

Additional observations from a re-analysis of the deposited data

How the results depend on the processing

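The log2 fold change of each kinase gene was recomputed under 141 combinations of gene and alternative; 138 kept both direction and side of the threshold and none reversed. The exceptions were MARK3 (-0.18 and -0.21, no longer called without NUAK2-CR replicate 2 and without NUAK2-CR replicate 3) and MARK2 (-0.22, called without WT replicate 2). Left-out libraries moved the kinases that were not called between -0.16 and -0.03 (SIK3), -0.22 and -0.08 (MARK2), 0.06 and 0.15 (MARK4) and -0.18 and -0.02 (STK11). NUAK2 ranged from -1.02 to -0.80 when single libraries were left out, and its log2 ratio to NUAK1 from -1.70 to -1.47. Called kinases stayed at 3 higher and ranged from 2 to 4 lower. Without the genes on chromosome 1, chosen after the data were seen, 1 kinase was called lower in place of 3. This follows from the choice, since NUAK2 and MARK1 lie there and were themselves left out. Same-numbered WT and NUAK2-CR libraries showed little shared deviation (correlations 0.0388, -0.0271 and 0.0439). Replicates 1 and 3 correlated best with their own number, and replicate 2 of each group did not. Correlations this small give no clear sign of a pairing but cannot exclude one. With the replicate number as a block, NUAK2 was at -0.92 and 3 kinases were called higher and 3 lower. DESeq2 called 4023 genes higher and 4108 lower, against 3912 and 4195 with edgeR. Without division by length the share of SIK1 with its copy rose by 15.6 percentage points in place of 20.6, and NUAK2 held 49.0% of the NUAK counts in WT in place of 61.9%. The median regional log2 fold change around MARK1 was -0.23 with 10 neighbours on each side, and around MARK2 0.27.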
